A study of Mus musculus with 4 samples.

Results

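The genes described here are 9 regulators of the naive and resting state of T cells: Foxo1, Klf2, Ccr7, S1pr1, Tcf7, Lef1, Satb1, Bach2 and Txnip. They were chosen by name, with earlier results of these data known, and all 9 were found among 17478 genes listed in the tables. RNA was sequenced from CD4+ T cells of C57BL/6 mice aged 6 to 8 weeks, which had been sorted from spleen and lymph nodes as naive cells (CD44 low, among other markers) and stimulated through CD3 and CD28 under Th9 conditions, which yield helper T cells that secrete interleukin 9, for 3 days. The wild-type group and the Bfar knockout group (labelled BFAR-/-, and described in the growth protocol as deficient in T cells only) had 2 libraries each, and both groups received the same culture. The sources used here do not state which promoter drove the deletion or which part of Bfar was removed.

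Naive T cells are held at rest by an active programme. The transcription factor FOXO1 stays in the nucleus while signals through PI3K and AKT are weak, and there it maintains KLF2, CCR7 and the interleukin 7 receptor. KLF2 drives S1PR1, the receptor by which T cells follow sphingosine 1-phosphate out of lymphoid organs, and CCR7 guides them into lymph nodes. TCF1 (encoded by Tcf7) and LEF1 are related HMG-box factors that keep T cells in a stem-like state, SATB1 and BACH2 restrain effector programmes, and TXNIP, which binds thioredoxin, limits glucose uptake. Much of this programme is turned down when T cells are activated.

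The promoters of the genes at the head of the axis, Foxo1 and Klf2, and of Txnip are shown because Txnip, alone among the members with an entry, carried a forkhead motif. They are the 250 bases before the annotated start, from RefSeq on GRCm38.p6, plus strand. Capitals mark matches to the forkhead motif TGTTTAC (reverse GTAAACA), to a carbohydrate response element of paired E-box-like sites, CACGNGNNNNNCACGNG, and to the KLF motif CCACCC (reverse GGGTGG).
Txnip, chr3:96557707-96557956: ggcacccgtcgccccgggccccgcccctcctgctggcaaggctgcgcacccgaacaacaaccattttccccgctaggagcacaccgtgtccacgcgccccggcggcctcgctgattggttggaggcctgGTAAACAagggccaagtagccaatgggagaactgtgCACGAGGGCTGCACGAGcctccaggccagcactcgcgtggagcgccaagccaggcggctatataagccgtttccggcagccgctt
Foxo1, chr3:52268087-52268336: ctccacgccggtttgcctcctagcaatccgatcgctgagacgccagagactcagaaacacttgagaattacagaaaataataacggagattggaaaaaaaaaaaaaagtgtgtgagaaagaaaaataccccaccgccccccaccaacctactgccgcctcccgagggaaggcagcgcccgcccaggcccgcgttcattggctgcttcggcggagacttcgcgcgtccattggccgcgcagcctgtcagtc
Klf2, chr8:72318812-72319061: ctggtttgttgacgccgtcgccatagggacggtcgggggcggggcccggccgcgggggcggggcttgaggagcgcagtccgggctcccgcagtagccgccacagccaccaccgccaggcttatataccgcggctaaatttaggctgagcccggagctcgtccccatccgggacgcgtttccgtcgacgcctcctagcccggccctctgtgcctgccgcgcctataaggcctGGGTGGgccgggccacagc

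Both strands were searched, and 7 of the 9 members had an entry (15 windows, since Lef1, Satb1 and Tcf7 have several starts). Ccr7 and S1pr1 had no entry. In the Txnip window the forkhead match lies 121 to 115 bases before the start and the paired sites lie 85 to 69 bases before it. The forkhead motif occurred in 3.17% of all 32851 promoter windows and the paired sites in 15 of them (0.0457%), Txnip included. Of the 13 genes with an entry in the list of FOXO targets described further on, only 1, Bcl2l11, had the forkhead motif. The KLF motif occurred in 28.1% of all windows and in at least 1 window of Klf2, Lef1, Satb1 and Tcf7. The intact E-box CACGTG (6.02% of windows) was found in a window of Lef1, and neither form of the TCF/LEF motif, CTTTGAT or CTTTGAA (7.48% together), in any member window. Such matches are letters in a sequence, not measured binding.

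The libraries held 19058009 to 19782923 expected counts. Bfar itself had 36.4 and 32.9 CPM (a count scaled to library size, so that libraries can be compared) in wild type 1 and 2 and 8.45 and 7.79 CPM in knockout 1 and 2, so both knockout libraries carried less of it. The T cell markers Cd3e, Cd3d, Cd3g, Cd4, Lck and Thy1 were present in all 4 libraries. Of these 6, 3 were themselves higher in the knockout and 0 lower, beside 13.6% and 13.2% of all tested genes (edgeR, adjusted p under 0.05). They were Cd4, Cd3g and Cd3e, by 0.23, 0.21 and 0.20 on the log2 scale. The call of Cd3e was lost without knockout replicate 1 (adjusted p = 0.05404), and that of Cd3g without knockout replicate 1 (0.0905) or wild type replicate 1 (0.0636). Genes of B cells, which also express several of the members, summed over 9 markers to between 7.53 and 9.46 CPM with overlapping groups, with Cd79b the most abundant (3.00 to 4.71 CPM). Myeloid markers summed to between 0.474 and 0.656 CPM, Adgre1 leading, and Lyz2, Csf1r and S100a8 were in none of the tables. The leading markers of CD8 T cells and natural killer cells, Cd8b1 and Eomes, had 8.50 to 9.82 and 2.37 to 3.68 CPM. Batf3, the leading dendritic cell marker and one that T cells also express, had 57.8 and 55.6 CPM in wild type and 46.4 and 53.4 CPM in the knockout (log2 -0.19, adjusted p = 0.042 in edgeR, and not passing in DESeq2 or without wild type replicate 1, wild type replicate 2 or knockout replicate 1). Xcr1, another dendritic cell marker, went the other way, from 1.21 and 1.01 CPM in wild type to 2.38 and 2.63 CPM in the knockout (log2 1.17, adjusted p = 0.00352 in edgeR, 0.0899 in DESeq2 and 0.0561 without knockout replicate 2). The part of these markers in the results was not tested. Nothing in the labels ties the replicates to separate mice, and the p-values reflect only how far these samples spread, which may be technical. The labels name no batch, and one that ran along with genotype cannot be told apart from genotype.

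Of the 9 members, 5 rose in the knockout and none fell (edgeR quasi-likelihood test, adjusted p under 0.05 over all 12677 tested genes). All 9 passed the filter on low counts. Among all tested genes 13.6% rose and 13.2% fell. The genes that rose were Ccr7, Txnip, Satb1, S1pr1 and Bach2, and those not called were Foxo1, Klf2, Tcf7 and Lef1. At an unadjusted p of 0.05 the counts were 6 higher and 1 lower. The share of all tested genes at that level is not given, here or for the lists described further on. It is at least the 13.6% higher and 13.2% lower found after adjustment, which never lowers a p-value. Counts at the unadjusted level therefore have no background to be read against. DESeq2 called 5 members higher and 0 lower, beside 839 and 730 over all genes. On the log2 scale (knockout over wild type) the median difference was 0.24 over the members and -0.0024 over all tested genes. The CPM of the groups did not overlap for 7 members, all higher in the knockout, where 63.4% of all tested genes were separated in either direction, 31.6% higher and 31.9% lower. In limma on log2(FPKM + 0.1) with no filter only Ccr7 and Txnip passed, and Satb1 (adjusted p = 0.0531), Bach2 (0.0613) and S1pr1 (0.0819) did not; of the genes in the 9 pathway lists described further on, 8 passed as higher there and 1 as lower, against 41 and 17. In bulk RNA, a larger share of cells that express a gene and more of its RNA per cell cannot be told apart.

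**Figure D1:**
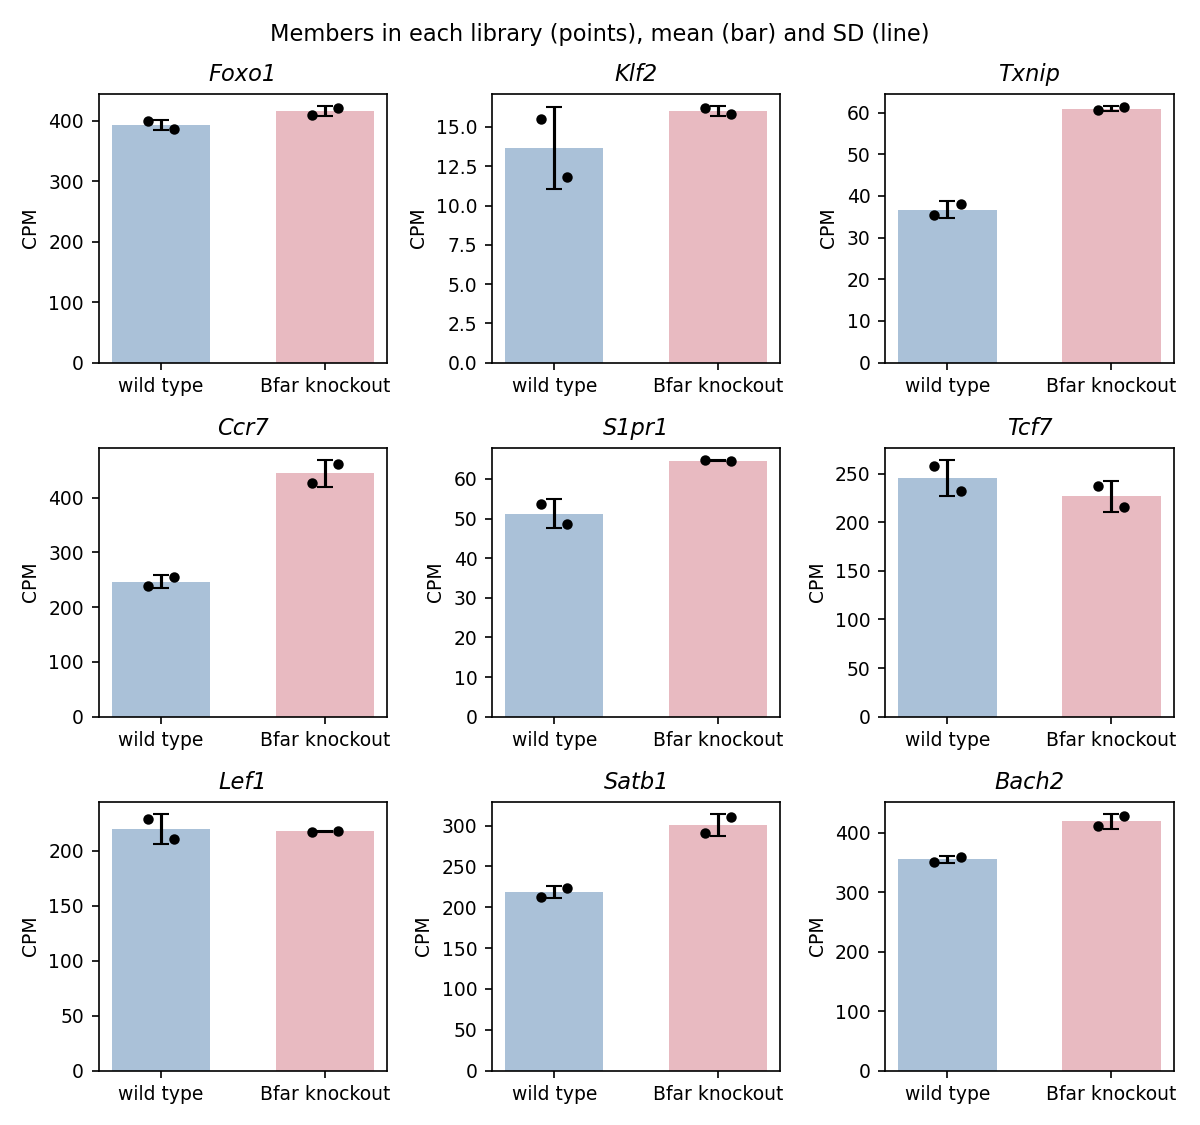
CPM (vertical axis, from 0, scaled separately for each gene) of the 9 members in wild-type and Bfar knockout libraries. Points are the 2 libraries of a group, bars their mean and lines the SD; both knockout points lie above both wild-type points except for Tcf7 and Lef1.

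Foxo1 (gene 56458, chromosome 3, 52268337 to 52350109, GRCm38), the forkhead factor that heads the axis, had 399 and 387 CPM in wild type 1 and 2 and 409.7 and 421 CPM in knockout 1 and 2. The knockout libraries were the higher ones, by a margin close to the gap between replicates. The difference was 0.08 ± 0.04 on the log2 scale (SE, n = 2 per group; adjusted p = 0.122 in edgeR), with a 95% interval of 0.0023 to 0.16. Klf2 (gene 16598, chromosome 8, 72319062 to 72321654), the zinc finger factor of T cell egress, had 15.5 and 11.8 CPM in wild type and 16.2 and 15.8 in the knockout. Wild type 2 stood below the other 3 libraries, which lay close together. The log2 fold change was 0.23 ± 0.11 (adjusted p = 0.156; 95% interval -0.014 to 0.48). It was 0.44 (adjusted p = 0.0174) without wild type replicate 1 and 0.047 (adjusted p = 0.817) without wild type replicate 2, so the estimate rests on which wild-type library is used.

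Ccr7 (gene 12775, chromosome 11, 99144199 to 99155077), the receptor for the lymph node chemokines CCL19 and CCL21, moved the most of the 9. It had 238 and 255 CPM in wild type and 427 and 461 CPM in the knockout, so the lower knockout library stood far above the higher wild-type one. The mean rose from 247 ± 12.2 to 444 ± 23.9 CPM (SD, n = 2), by 80.1%, or 0.85 ± 0.05 on the log2 scale (SE; adjusted p = 4.46e-09 in edgeR). S1pr1 (gene 13609, chromosome 3, 115710433 to 115715055), the egress receptor, had 53.7 and 48.6 CPM in wild type and 64.7 and 64.6 in the knockout. The 2 knockout libraries were almost the same and lay above both wild-type libraries. Its rise of 26.3% (log2 0.34 ± 0.06, adjusted p = 0.000407) was smaller than that of Ccr7.

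Neither HMG-box gene passed the test, and they were the only members whose groups overlapped in CPM. Tcf7 (gene 21414, chromosome 11, 52246527 to 52283383) had 258 and 232 CPM in wild type and 238 and 216 CPM in the knockout. The groups overlapped, since knockout 1 lay between the wild-type libraries. Its log2 fold change was -0.11 ± 0.05 (adjusted p = 0.128 in edgeR; 95% interval -0.23 to -0.0013), and -0.19 (adjusted p = 0.0329) without wild type replicate 2. Lef1 (gene 16842, chromosome 3, 131110297 to 131224357) had 229 and 210.4 CPM in wild type and 217 and 218 CPM in the knockout. Both knockout values fell between the wild-type ones. The log2 fold change was -0.015 ± 0.044 (adjusted p = 0.84), with a 95% interval of -0.11 to 0.078, and its sign turned without wild type replicate 1 (0.048, adjusted p = 0.581). A difference for Lef1 as large as that of S1pr1 therefore lies outside its interval.

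The chromatin organiser Satb1 (gene 20230, chromosome 17, 51736187 to 51833290) had 213 and 223 CPM in wild type and 291 and 309.8 CPM in the knockout. Each knockout library was above both wild-type libraries by several times the gap within a genotype. The rise was 37.7% (log2 0.46 ± 0.04, adjusted p = 1.57e-06 in edgeR). Bach2 (gene 12014, chromosome 4, 32238413 to 32586109), a repressor of effector genes, had 351 and 359 CPM in wild type and 410.4 and 427 CPM in the knockout. The groups were separate although the change was modest, at 18.0% (log2 0.24 ± 0.04, adjusted p = 0.000253). The antisense gene Bach2os lies within the span of Bach2 and had 3.65 to 11.3 counts per library, few beside at least 6956 for Bach2. The sources used here do not say whether counting used strand. Reads from stretches where exons of Bach2 and Bach2os overlap on opposite strands therefore cannot be told apart. The same holds for Txnip and its antisense neighbour.

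Txnip (gene 56338, chromosome 3, 96557957 to 96561857), an alpha-arrestin that binds thioredoxin and promotes the internalisation of glucose transporters, had 35.3 and 38.2 CPM in wild type and 60.6 and 61.3 CPM in the knockout. The knockout libraries agreed closely and both exceeded the wild type. The mean rose from 36.7 ± 2.0 to 61.0 ± 0.535 CPM (SD, n = 2), by 65.9%, or 0.73 ± 0.06 on the log2 scale (SE; adjusted p = 3.05e-07 in edgeR). Its antisense neighbour Gm15441 had 31.7 to 51.1 counts per library against 700.1 to 1169 for Txnip, and a log2 fold change of 0.30 ± 0.26 (adjusted p = 0.419).

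**Figure D2:**
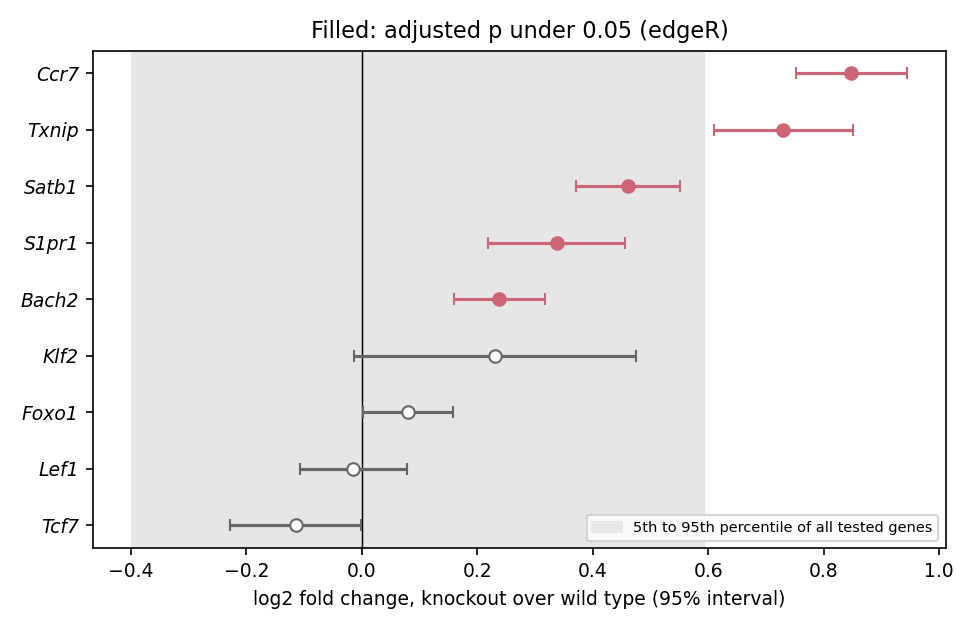
Log2 fold change (horizontal axis, knockout over wild type) of each member with its 95% interval from the edgeR fit; filled points passed an adjusted p of 0.05, and the grey band spans the 5th to the 95th percentile of all tested genes (-0.40 to 0.59). Ccr7 (0.85) and Txnip (0.73) lie beyond the band, and Lef1 (-0.015) and Tcf7 (-0.11) are at the lower end.

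The members also differed in abundance. Per transcript length, in the authors' FPKM values, Ccr7 was the most abundant in wild type (121.5 and 130.1 FPKM), followed by Tcf7 (96.6 and 86.4), Lef1 (86.6 and 79.5) and Foxo1 (71.2 and 69.0). The libraries of Tcf7 and Lef1 overlapped in FPKM, so their order is not set. Bach2 (40.9 and 41.8 FPKM) and Satb1 (33.8 and 35.4) were in the middle, and S1pr1 (17.7 and 16.0), Txnip (12.6 and 13.6) and Klf2 (8.57 and 6.52) were the lowest. The least and the most abundant receptor, S1pr1 and Ccr7, both serve homing and egress. In the knockout Satb1 (46.1 and 48.9 FPKM) reached Bach2 (47.6 and 49.5 FPKM), with overlapping values, and Txnip (21.5 and 21.7) stood just above S1pr1 (21.2 and 21.2). Ccr7 was higher in mean FPKM than 98.1% of all listed genes, and Klf2 than 59.9%.

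**Figure D3:**
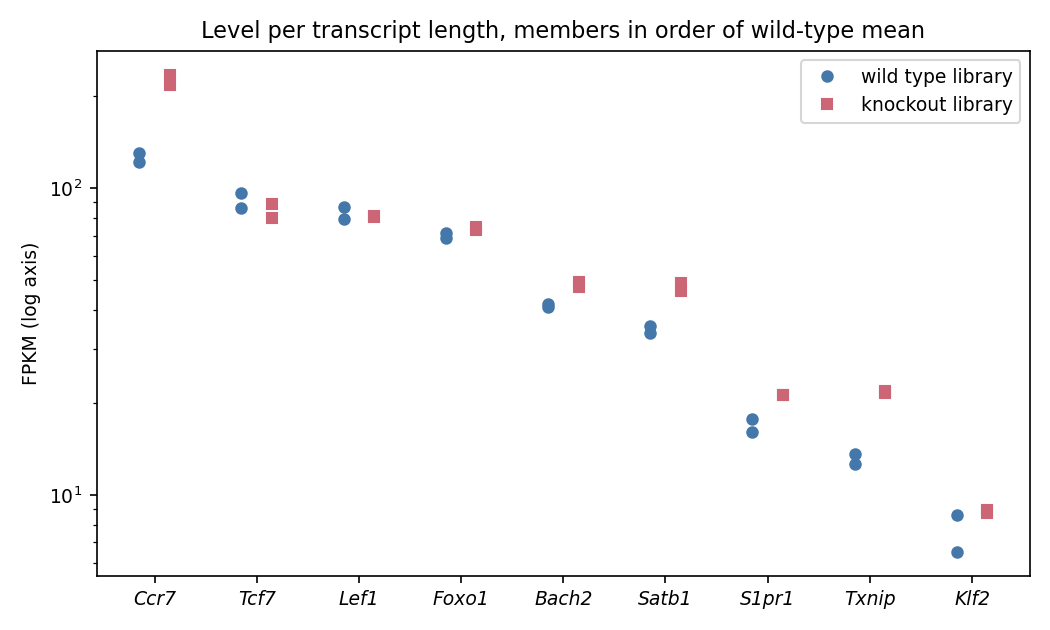
FPKM (vertical log axis) of the 9 members in each library, ordered by the wild-type mean; circles are wild-type and squares are knockout libraries. Ccr7 is at the top in both genotypes and Klf2 at the bottom, and Satb1 and Bach2 meet in the knockout.

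The tables also give a mean transcript length for each gene, weighted by the authors' estimate of its transcripts. It is fixed for the 4 members listed with a single transcript, Foxo1, Klf2, S1pr1 and Bach2. For Lef1, with 3 transcripts, it was 2642 and 2640.2 bases in wild type and 2655 and 2679 bases in the knockout. The knockout lengths were both the longer, by 25.9 bases on average, with a gap between the knockout libraries of similar size. For Tcf7 the lengths overlapped (2671 and 2683 bases in wild type, 2667 and 2675 in the knockout), and those of Ccr7, Satb1 and Txnip differed on average by less than 3 bases between genotypes. The rises of Ccr7, Satb1 and Txnip were thus also present per transcript length.

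Genes known as FOXO targets rose with the members. Of 15 tested, 12 rose and none fell, beside 13.6% of all genes rising, and their median log2 fold change was 0.40. The list was chosen with earlier results of these data known, so its count describes these genes and is no independent test. Il7r, the interleukin 7 receptor on which naive T cells depend for survival, had 12.9 and 12.4 CPM in wild type and 32.2 and 32.9 CPM in the knockout (log2 1.36 ± 0.08, SE; adjusted p = 1.26e-08 in edgeR). Both knockout libraries held more than double the wild-type level, at 2.58 times its mean. Sesn3, a stress-induced regulator of mTORC1, rose from 43.4 ± 0.875 to 78.7 ± 3.98 CPM (log2 0.86). Ccng2, an atypical cyclin of resting cells, rose from 49.5 ± 0.637 to 76.1 ± 4.03 CPM (log2 0.62), and Cdkn1b, which encodes the cell cycle inhibitor p27, from 69.1 ± 0.141 to 87.6 ± 1.35 CPM (log2 0.34). The 3 targets not called were Sesn1, Sod2 and Cited2. At an unadjusted p of 0.05 the list gave 12 higher and 0 lower, in DESeq2 9 and 0, and without knockout replicate 2 it gave 8 and 0.

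Among the relatives and regulators of FOXO proteins the changes went both ways. Of 15 tested, 5 rose and 2 fell, or 46.7% called beside 26.8% of all tested genes, and the median was 0.051. Foxo4, a relative of Foxo1, rose from 24.9 ± 0.879 to 31.7 ± 0.503 CPM (log2 0.35 ± 0.07, adjusted p = 0.00178 in edgeR, and 0.05003 without knockout replicate 2), whereas Foxo3 had a log2 fold change of 0.036 (adjusted p = 0.635). Pik3r1, the regulatory subunit of PI3K, rose by 0.17 on the log2 scale, a call lost without knockout replicate 1 (adjusted p = 0.0556). The 2 that fell, the kinase gene Akt1 and the deubiquitinase gene Usp7, fell by 0.14 and 0.13 on the log2 scale. Akt1 did not pass when any 1 library was left out (adjusted p 0.0539 to 0.136), nor Usp7 without wild type replicate 2 or either knockout library (0.0702 to 0.126). The list as a whole gave 2 higher and 0 lower without knockout replicate 2, and 3 higher without any other library.

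Other Kruppel-like factors were uneven. Of 11 tested, 3 rose and 1 fell, or 36.4% called beside 26.8% of all tested genes. Klf6 rose from 241 ± 2.24 to 308 ± 5.30 CPM (log2 0.36 ± 0.04, adjusted p = 6.24e-06 in edgeR) and Klf13, which is abundant in lymphocytes, from 282 ± 0.288 to 352 ± 3.16 CPM (log2 0.32 ± 0.04). Klf12, at 0.908 and 1.21 CPM in wild type and 4.56 and 4.48 CPM in the knockout, was scarce in every library and had the largest fold of the list (log2 2.08 ± 0.23). Klf16 fell by 0.18 on the log2 scale, and its call was lost without wild type replicate 1 (adjusted p = 0.103) and without knockout replicate 2 (0.127). Klf3 had -0.087 (adjusted p = 0.439).

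Homing and egress genes besides Ccr7 and S1pr1 were also divided, with 5 of 16 higher and 3 lower, beside 13.6% and 13.2% of all tested genes, and a median of -0.021. S1pr4, another sphingosine 1-phosphate receptor of lymphocytes, had 47.0 and 44.0 CPM in wild type and 55.3 and 57.3 CPM in the knockout (log2 0.31 ± 0.06, adjusted p = 0.000818 in edgeR). Gpr183, the oxysterol receptor that positions cells within lymphoid tissue, rose from 26.0 ± 1.70 to 35.3 ± 0.491 CPM (log2 0.44 ± 0.07), and Rgs1, a brake on chemokine receptor signalling, rose by 0.24 on the log2 scale. Arrb1, encoding an arrestin that desensitises such receptors, rose from 211 ± 4.97 to 359 ± 29.0 CPM (log2 0.77 ± 0.05, adjusted p = 3.07e-08). Sphk1, a kinase that makes sphingosine 1-phosphate, fell from 13.7 and 13.9 CPM to 9.69 CPM in both knockout libraries (log2 -0.51 ± 0.10, adjusted p = 0.00161). Cd69, whose product pulls S1PR1 from the cell surface, had 33.1 and 33.4 CPM in wild type and 30.8 and 30.8 CPM in the knockout (log2 -0.11, adjusted p = 0.225). The number that fell was 1 without knockout replicate 1.

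Among partners and relatives of TCF1 and LEF1, of 19 tested none passed as higher and 5 were lower. That is 26.3% called, close to the 26.8% of all tested genes called in either direction (13.6% rising and 13.2% falling). At an unadjusted p of 0.05 the list had 2 higher and 5 lower, and DESeq2 called 0 higher and 2 lower. Slamf6, a surface receptor that marks stem-like T cells, had 13.3 and 15.2 CPM in wild type and 8.09 and 7.48 CPM in the knockout, with separate groups (log2 -0.87 ± 0.11, SE; adjusted p = 5.75e-05 in edgeR). Tle4, a Groucho corepressor that TCF factors recruit, fell from 17.4 ± 0.179 to 12.5 ± 1.71 CPM (log2 -0.48 ± 0.10, adjusted p = 0.0028, and 0.0807 without knockout replicate 2). Axin2, a known target of TCF and beta-catenin, fell from 13.8 ± 0.651 to 10.9 ± 0.75 CPM (log2 -0.34 ± 0.10, adjusted p = 0.0215), Axin1 by 0.16 and Myb by 0.25 on the log2 scale. The falls of Axin1, Axin2 and Myb did not pass without wild type replicate 1 or either knockout library, or in DESeq2. Without knockout replicate 2 only 1 gene of the list passed as lower, and 2 did without wild type replicate 1 or without knockout replicate 1. Id3, an inhibitor linked to memory-like cells, was scarce, with 1.37 to 1.82 CPM (26 to 36 counts), and was not called (log2 -0.23, adjusted p = 0.570 in edgeR).

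Around Txnip, its close relative Arrdc3 rose from 14.96 ± 0.459 to 29.0 ± 2.63 CPM (log2 0.96 ± 0.09, adjusted p = 1.52e-06 in edgeR), while Arrdc4, which shares the MondoA sensor with Txnip, had 3.99 and 3.85 CPM in wild type and 4.15 and 5.63 CPM in the knockout (log2 0.32, adjusted p = 0.206). The glucose transporter gene Slc2a1 rose from 484 ± 1.38 to 556 ± 16.4 CPM (log2 0.20 ± 0.04, adjusted p = 0.000796) and the thioredoxin reductase gene Txnrd1 fell from 147 ± 0.629 to 126 ± 4.70 CPM (log2 -0.23 ± 0.04). In all, 2 of 12 rose and 1 fell, a share of 25.0% beside 26.8% of all tested genes changing in either direction. The genes of the sensor itself, Mlxip (log2 0.094, adjusted p = 0.135) and Mlx (-0.17, adjusted p = 0.062), were not called.

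Around Satb1 and Bach2, 1 of 7 tested genes was lower and none was higher (1 higher and 2 lower at an unadjusted p of 0.05, and 0 and 1 in DESeq2), where 13.2% of all tested genes were lower. Hmox1, a haem-degrading enzyme gene that the relative BACH1 represses, fell from 28.4 ± 1.55 to 21.0 ± 3.50 CPM (log2 -0.44 ± 0.10, adjusted p = 0.0036 in edgeR, and 0.104 without knockout replicate 2). Prdm1, which encodes the effector factor BLIMP-1 that BACH2 represses, was scarce, with 0.404 and 0.86 CPM in wild type and 1.09 and 1.11 CPM in the knockout (log2 0.79 ± 0.40, adjusted p = 0.158).

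Other genes known to hold T cells at rest included 10 of 17 that rose and 2 that fell, beside 13.6% and 13.2% of all tested genes, with a median of 0.17. The ubiquitin ligase gene Cblb rose from 143 ± 6.44 to 232 ± 5.85 CPM (log2 0.70 ± 0.04, adjusted p = 2.16e-08 in edgeR), the antiproliferative gene Btg2 from 36.2 ± 3.15 to 51.3 ± 3.46 CPM (log2 0.50 ± 0.07) and Ets1 from 609.7 ± 14.6 to 715 ± 10.4 CPM (log2 0.23 ± 0.04). Slfn2, whose loss breaks T cell quiescence, went the other way, from 192 ± 1.32 to 148 ± 14.0 CPM (log2 -0.38 ± 0.05, adjusted p = 9.35e-05). The number that rose was 5 without knockout replicate 1, 6 without knockout replicate 2 or wild type replicate 2, 6 in DESeq2 and 5 with no filter on low counts.

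Genes of activated T cells moved in both directions. Of 12 tested, 5 rose and 2 fell, or 58.3% called beside 26.8% of all tested genes, with a median of 0.074. Tnfrsf9, the costimulatory receptor 4-1BB, rose from 456 ± 24.3 to 683 ± 36.2 CPM (log2 0.58 ± 0.04, adjusted p = 2.48e-07 in edgeR), Cd44, whose low level had defined the sorted naive cells, from 768 ± 0.0972 to 889.9 ± 1.99 CPM (log2 0.21 ± 0.03), and Icos by 0.23 on the log2 scale. The amino acid transporter chain gene Slc3a2 fell from 429 ± 3.88 to 360.2 ± 12.3 CPM (log2 -0.25 ± 0.04), and the number that fell was 1 without wild type replicate 2 or either knockout library.

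**Figure D4:**
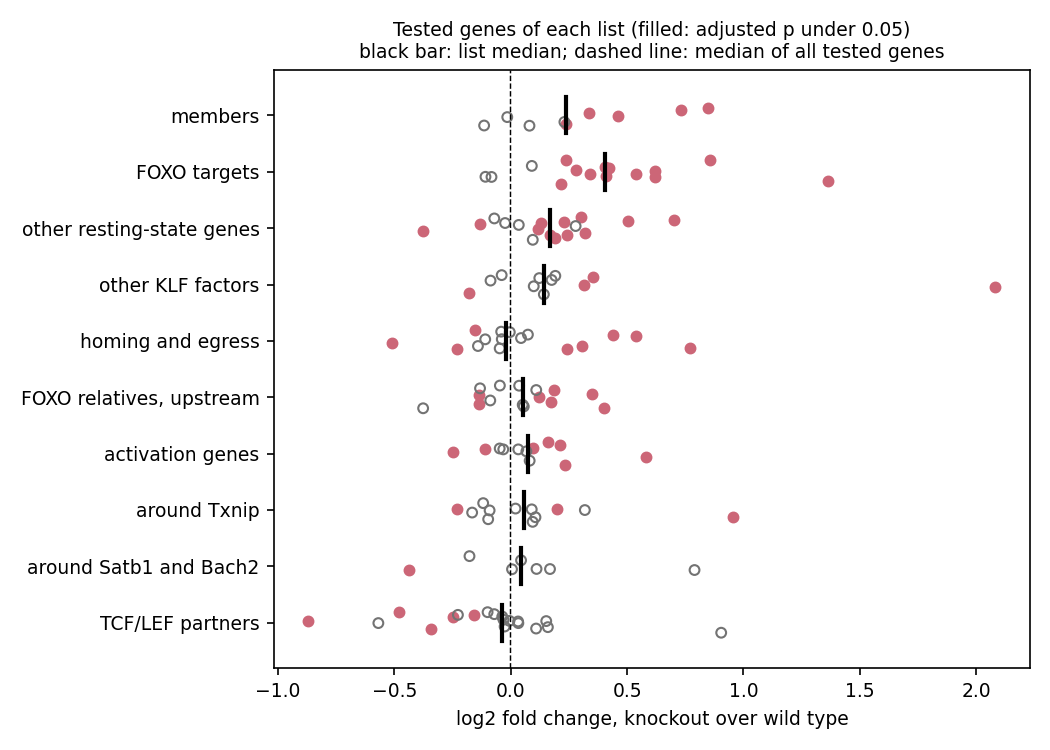
Log2 fold change (horizontal axis, knockout over wild type) of each tested gene in the 9 pathway lists and among the members; filled points passed an adjusted p of 0.05 in edgeR, black bars are list medians and the dashed line is the median of all tested genes. FOXO targets lie mostly to the right (median 0.40). The 5 called TCF/LEF partners lie to the left, in a list of 19 tested genes with a median of -0.037.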

How the data were processed

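Each library came with 1 table, which per the file headers gives for every gene a length, an expected count and an FPKM value. Per the submitters' processing notes, Bowtie and RSEM on GRCm38 (mm10) were used. RSEM shares reads among transcripts, so the deposited expected counts need not be whole. The deposited FPKM values were scaled by the authors to length and depth. The sources used here give no annotation, strand setting or versions. A gene missing from a table was taken as 0.

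Expected counts were rounded and tested with edgeR 4.0.16 (R 4.3.3): quasi-likelihood test, two-sided, TMM factors (0.997 to 1.0022), default filterByExpr (minimum count 10, total 15), Benjamini-Hochberg over 12677 genes, threshold 0.05. The standard error is the log2 fold change divided by the square root of F. Depth was 19058009 to 19782923 counts, so 3 counts equal 0.152 to 0.157 CPM. On simulated data with 12677 genes, 50 genes were changed at each fold tried, far fewer in all than the 3398 called in the data. There 58% of genes changed 1.25-fold, 68% changed 1.5-fold and 88% changed 2-fold were recovered, with 5 unchanged genes called. These rates need not hold for the data, where more genes changed. No 2 libraries were duplicates (chi-square per degree of freedom 2.15 or more).

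Alternatives used DESeq2 1.42.0, limma 3.58.1 on log2(FPKM + 0.1) and log2(FPKM + 1), other factors and filters, each library left out, and a replicate block. The members, lists and tests were chosen with earlier results of these data known. Named were all members, up to 4 called genes per list with the smallest adjusted p, genes on which a sentence about a role turns (Il7r, Cd69, Foxo3, Klf3, Klf6, S1pr4, Id3, Prdm1, Slc2a1, Arrdc4), and the most abundant marker of each other cell type. Akt1, Usp7, Sphk1, Myb, Mlx, Mlxip, Sesn1, Sod2, Cited2, Cd4, Cd3e, Cd3g, Xcr1, Gm15441 and Bach2os fall outside that rule and were chosen after their values were seen. The members shared at most 1.47% of their 31-mers with transcripts of another listed gene (GENCODE M21). Protein sequences were not used here. Values of a few genes covered by this rule are left out.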

Additional observations from a re-analysis of the deposited data

How the results depend on the processing

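Over 13 alternatives, 3 members (Ccr7, Txnip and Foxo1) kept their direction and their side of the threshold in each. In 110 of 117 comparisons over the members nothing changed, 3 calls were lost, 3 were gained and 1 sign turned (Lef1, -0.075 to 0.048 with each library left out, the highest without wild type replicate 1). The replicate numbers are shared by the genotypes but nothing in the labels pairs the libraries, and same-numbered libraries did not deviate together (r = 0.0067 across genes). With the replicate block 5 members were higher and 1, Tcf7 (adjusted p = 0.0135), was lower, and the counts over all genes were 1977 higher and 1975 lower. With limma on unfiltered log2(FPKM + 0.1), 2 members, 8 pathway genes and 143 of all genes were higher, and 1 pathway gene and 116 of all genes were lower, against 5, 41, 1728, 17 and 1670. DESeq2 called 839 genes higher, 730 lower and 9 pathway genes lower. With no filter on low counts these were 1051, 877 and 8, and limma on filtered log2(FPKM + 0.1) called 1151 genes higher. Leaving out each library in turn gave 5 to 6 members higher and 0 to 1 lower, 29 to 33 pathway genes higher and 6 to 13 lower, and 812 to 1243 genes higher and 629 to 1112 lower over all. The cause of each shift was not tested. Id3, Prdm1, Arrdc4 and Klf12 had few counts, which limits what this depth can show of them.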
